A study of Homo sapiens with 6 samples.

Results

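The 10 snoRNA host genes described here are SNHG1, SNHG5, SNHG6, SNHG7, SNHG8, SNHG12, SNHG15, SNHG16, GAS5 and ZFAS1. They were taken by symbol from 63677 counted genes, and each symbol had a row with reads; all 10 passed the filter on low counts that left 15949 genes for testing. They were measured in RPMI-8402, a T-cell acute lymphoblastic leukaemia (T-ALL) line made to express Cas9 stably. The DOX group (3 libraries) received doxycycline to switch on guide RNAs, and the DMSO group (3 libraries) received the solvent, both for 72 h and both in the Cas9 line. The guides are said to be against MYC and MYCN in the series text, against MYC in the treatment text, and the genotype given for the DOX samples is a MYCN knockout. Cells given doxycycline without guides were not analysed here, so a response to the drug and a response to the guides cannot be told apart. The libraries were made from total RNA and keep the strand, with paired reads.

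Small nucleolar RNAs (snoRNAs) guide the chemical modification of ribosomal and spliceosomal RNA, and most human snoRNAs are cut out of the introns of a longer host transcript. Box C/D snoRNAs guide methylation of the ribose and box H/ACA snoRNAs guide the conversion of uridine to pseudouridine. Some hosts code for proteins, whereas the 10 genes here are hosts whose spliced RNA is long and non-coding; several of these RNAs, GAS5 among them, are known to be degraded by nonsense-mediated decay (NMD) and to begin with a pyrimidine-rich start like that of ribosomal protein mRNAs.

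Each library is called by its group with the number of its count column, as DOX 12, 24 and 36 and DMSO 11, 23 and 35. Totals were 28602145 to 28911373 counts in DOX and 28952786 to 29204148 counts in DMSO. DMSO 11 lay nearer to the DOX libraries than to the rest of its group. CPM are counts scaled by the library's total over the tested genes times its TMM scaling factor. Over genes with at least 10 CPM, the root mean square log2 distance of DMSO 11 was 0.18 to 0.21 to the DOX libraries. Its distance was 0.41 to 0.43 to DMSO 35 and DMSO 23. The DOX libraries were 0.11 apart from one another, and DMSO 23 was 0.17 from DMSO 35. Results are therefore given with and without DMSO 11. This library was singled out from the same values that are tested, and leaving it out narrows the spread in DMSO. The p-values without DMSO 11 are therefore descriptions and not independent evidence. MYCN, the paralogue of MYC, held 46.2, 50.05 and 53.7 CPM in DOX 12, 24 and 36, against 76.8, 110 and 86.9 CPM in DMSO 11, 23 and 35, without overlap. MYC stood at 206, 200.5 and 193 CPM in DOX and at 279, 201 and 256 CPM in DMSO, with overlap. By edgeR's quasi-likelihood test neither was called (log2 fold change -0.87 ± 0.13, adjusted p = 0.0726 for MYCN; -0.30 ± 0.12, adjusted p = 0.176 for MYC), and DESeq2 called MYCN (adjusted p = 1.08e-05). The T lineage markers were at 1 CPM or more in every library for 10 of 10 genes, with a summed level of 2174 to 2236 CPM in DOX and 2230 to 2426 CPM in DMSO. The summed B lineage markers stood at 6.13 to 7.93 CPM in DOX and 5.39 to 7.18 CPM in DMSO, with MS4A1 at 0. The summed myeloid markers stood at 1.35 to 1.53 CPM in DOX and 0.710 to 1.32 CPM in DMSO, with CD33 at 0. The summed erythroid markers were at most 0.383 CPM in DOX and at most 0.250 CPM in DMSO, with HBA2 at 0. The summed stroma and epithelium markers stood at 9.46 to 10.1 CPM in DOX and 2.84 to 7.11 CPM in DMSO, mostly COL1A1, with PECAM1 at 0. Their part in the results below was not tested. The labels do not say whether libraries are separate cultures, and the spread behind each p-value may thus be technical.

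Host gene RNA was at one level in the DOX libraries and at different levels in the DMSO libraries. The 10 genes together held 1642, 1854 and 1713 CPM in DOX 12, 24 and 36, against 1563, 4208 and 3340.1 CPM in DMSO 11, 23 and 35. The DOX libraries lay close to DMSO 11, and DMSO 23 and DMSO 35 were well above both. SNHG1, SNHG5, SNHG7, SNHG8, SNHG12, SNHG15, GAS5 and ZFAS1 shared this order: in these 8 genes DMSO 23 was the highest library, DMSO 35 came next, both were above every DOX library, and DMSO 11 was the DMSO library nearest the DOX mean. SNHG6 and SNHG16 did not follow it. Where bulk RNA differs in this way, fewer cells of a type and less RNA per cell cannot be told apart.

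**Figure D1:**
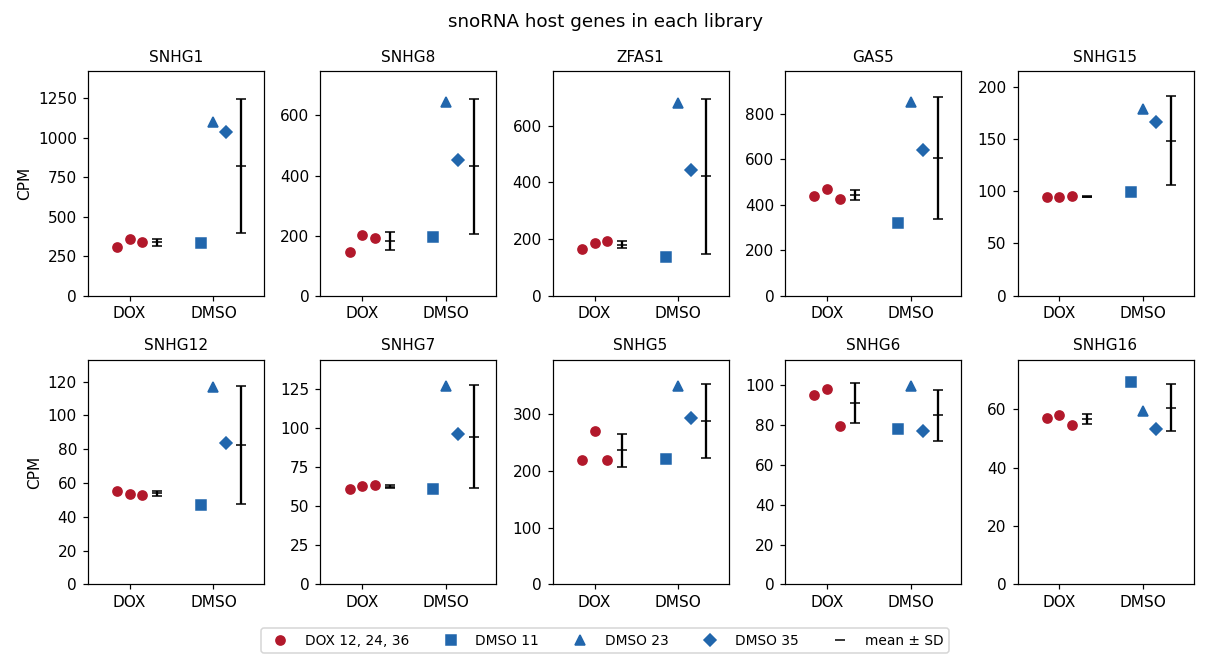
Level of each host gene in CPM (vertical axis, from 0, scaled per gene) in the DOX libraries (red circles) and the DMSO libraries (blue, 1 shape per library), with the mean ± SD of each group in black. In 8 of the 10 genes the DMSO 11 square is the DMSO point nearest the DOX mean, and the other DMSO points lie above every DOX circle.

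Across all 6 libraries, edgeR's quasi-likelihood test called 0 of the 10 host genes at a Benjamini-Hochberg adjusted p of 0.05, in a comparison where it called 5 of 15949 genes (0.0313%). At an unadjusted p under 0.05 there were 6, namely SNHG1, SNHG7, SNHG8, SNHG12, SNHG15 and ZFAS1, beside 4150 of all genes (26%). DESeq2's Wald test called SNHG15 lower in DOX and none higher, where it called 6.44% of genes lower and 3.37% higher, and limma voom called 0. The median log2 fold change of the 10 genes, DOX over DMSO, was -0.61, beside -0.0031 for all genes tested. Without DMSO 11, edgeR called 8 of 10 lower and 0 higher, with a median of -0.85. That fit called 25.7% of all genes lower and 23.7% higher, so a call in it was common. Without DMSO 23 the median was -0.31. Only SNHG15 had groups that did not overlap, with every DOX library below every DMSO library, as did 15.6% of all genes tested; 14.6% had every DOX library above every DMSO library, and none of the 10 hosts did. A two-sided exact permutation test over the 20 ways of splitting the 6 libraries gave p = 0.1 for SNHG15, the smallest it can give, and 0.2 to 0.6 for the other genes.

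SNHG1, SNHG8 and ZFAS1 had the most negative fold changes. SNHG1 (ENSG00000255717, chromosome 11), the host of SNORD22 and of a run of box C/D snoRNAs from SNORD25 on, stood at 311, 360.4 and 339.7 CPM in DOX 12, 24 and 36, against 334, 1099.7 and 1037 CPM in DMSO 11, 23 and 35. DMSO 11 fell inside the range of the DOX libraries, and DMSO 23 held 3.29 times its level. The means were 337 ± 24.7 CPM in DOX and 824 ± 425 CPM in DMSO (SD, n = 3 each), and the log2 fold change was -1.29 ± 0.37 (SE; edgeR's quasi-likelihood test, Benjamini-Hochberg adjusted p = 0.104). Without DMSO 11 it was -1.66 ± 0.08 (edgeR adjusted p = 3.74e-12).

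SNHG8 (ENSG00000269893, chromosome 4), the host of the H/ACA RNA SNORA24, stood at 147, 203 and 191 CPM in DOX, against 196, 645 and 450.2 CPM in DMSO 11, 23 and 35. As in SNHG1, DMSO 11 lay within the DOX range and the other DMSO libraries lay above it. Means were 180.4 ± 29.9 CPM in DOX and 430.1 ± 225 CPM in DMSO (SD, n = 3 each), with a log2 fold change of -1.25 ± 0.36 (edgeR adjusted p = 0.104; DESeq2 adjusted p = 0.0563). Without DMSO 11 it was -1.60 ± 0.21 (edgeR adjusted p = 0.00264).

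ZFAS1 (ENSG00000177410, chromosome 20), which carries SNORD12, SNORD12B and SNORD12C, stood at 165, 185 and 192 CPM in DOX, against 137, 681 and 443 CPM in DMSO 11, 23 and 35. DMSO 11 was below every DOX library while DMSO 23 held 4.97 times the level of DMSO 11, the widest gap between those libraries among the 10 genes. Means were 180.4 ± 14.0 CPM in DOX and 420.5 ± 273 CPM in DMSO (SD, n = 3 each), and the log2 fold change was -1.22 ± 0.46 (edgeR adjusted p = 0.148). Without DMSO 11 it was -1.64 ± 0.19 (edgeR adjusted p = 0.00104).

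SNHG15 had the tightest DOX values. SNHG15 (ENSG00000232956, chromosome 7), the host of SNORA9, stood at 94.6, 94.4 and 94.99 CPM in DOX, against 99.7, 179 and 167 CPM in DMSO 11, 23 and 35. Every DOX library was below every DMSO library, although DMSO 11 was only just above them. Means were 94.7 ± 0.288 CPM in DOX and 148 ± 42.6 CPM in DMSO (SD, n = 3 each), and the log2 fold change was -0.65 ± 0.19 (edgeR adjusted p = 0.107). DESeq2 called it, with an adjusted p of 0.0228, and the authors' deposited table gave an adjusted p of 0.0188 at a log2 fold change of -0.65. In DESeq2 fits added after the data were seen, the call was kept without DMSO 11 (DESeq2 adjusted p = 4.25e-31). That fit called 6806 of all genes, beside 1383 with all 6 libraries. The call of SNHG15 ended when any other library was left out, in fits that called 95 to 190 of all genes. Its DESeq2 adjusted p was 0.232 without DMSO 23 and 0.199 without DMSO 35. It was 0.187, 0.146 and 0.171 without DOX 12, 24 and 36.

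GAS5 (growth arrest specific 5; ENSG00000234741, chromosome 1), a host of many box C/D snoRNAs known to build up in growth-arrested cells, stood at 438, 469.6 and 427 CPM in DOX, against 321, 852 and 641 CPM in DMSO 11, 23 and 35. The DOX libraries lay between DMSO 11 on one side and DMSO 23 and 35 on the other. Its means were 445 ± 22.0 CPM in DOX and 605 ± 268 CPM in DMSO (SD, n = 3 each), and its log2 fold change was -0.44 ± 0.29 (edgeR adjusted p = 0.349). Without DMSO 11 it was -0.75 ± 0.10 (edgeR adjusted p = 8.49e-06).

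SNHG12 (ENSG00000197989, chromosome 1), which carries SNORD99 and several H/ACA RNAs, stood at 55.4, 53.6 and 52.6 CPM in DOX, against 47.1, 117 and 83.6 CPM in DMSO 11, 23 and 35. SNHG7 (ENSG00000233016, chromosome 9), the host of SNORA17A and SNORA17B, stood at 61.2, 62.8 and 63.3 CPM in DOX, against 60.8, 126 and 96.0 CPM in DMSO 11, 23 and 35. In both genes the DOX libraries were all above DMSO 11 and all below the other DMSO libraries. The log2 fold change was -0.62 ± 0.27 for SNHG12 (edgeR adjusted p = 0.191) and -0.60 ± 0.22 for SNHG7 (edgeR adjusted p = 0.147). Without DMSO 11 the values were -0.90 ± 0.11 (edgeR adjusted p = 3.65e-05) and -0.83 ± 0.09 (edgeR adjusted p = 1.46e-06).

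SNHG5 (ENSG00000203875, chromosome 6), the host of SNORD50B, had the narrowest range over the DMSO libraries among the 8 genes that shared the order, with DMSO 23 at 1.59 times DMSO 11. It stood at 219, 269 and 219 CPM in DOX, against 220.03, 349 and 292.5 CPM in DMSO 11, 23 and 35. DOX 24 lay near DMSO 35, and DMSO 11 was within the DOX range. Its log2 fold change was -0.29 ± 0.17 (edgeR adjusted p = 0.299), and -0.45 ± 0.10 without DMSO 11 (edgeR adjusted p = 0.00142).

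**Figure D2:**
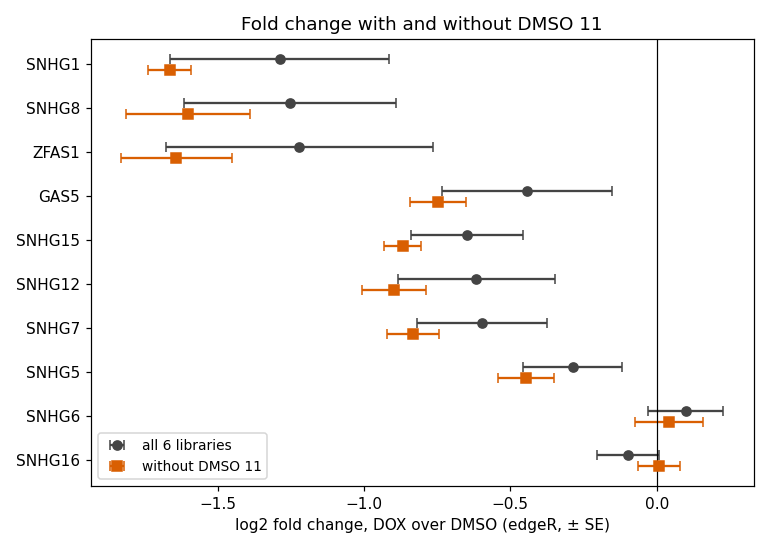
Log2 fold change of each host gene, DOX over DMSO, from edgeR (horizontal axis; bars are ± SE) with all 6 libraries (grey circles) and without DMSO 11 (orange squares). SNHG1, SNHG8 and ZFAS1 lie at -1.22 to -1.29 with all libraries and at -1.60 to -1.66 without DMSO 11, where the bars of all genes but SNHG6 and SNHG16 are well clear of 0; SNHG6 and SNHG16 stay near 0.

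The starts of the host genes were searched for 3 motifs on the gene's strand. RefSeq promoter windows (GRCh38.p14) were read for 8 of the 10 genes, all but SNHG6 and SNHG15. TATAA, the core of a TATA box, occurred in the 50 bases before the start in 5 of 8 genes (SNHG5, SNHG7, SNHG8, SNHG12 and ZFAS1), as in 4.74% of 35116 promoter windows. A C followed by at least 4 C or T bases, beginning within 10 bases before to 30 bases after the start, occurred in 6 of 8 genes (SNHG5, SNHG7, SNHG8, SNHG12, SNHG16 and ZFAS1), as in 46.1% of all windows. This is the kind of run with which transcripts of the 5′ terminal oligopyrimidine (5′TOP) class begin. CACGTG, the E-box hexamer that MYC with its partner MAX can bind and that reads the same on both strands, occurred in the whole 300 base window of SNHG7 alone, 1 of 8 genes, as in 7.26% of all windows. The SNHG1 and GAS5 windows, taken at the RefSeq start, held none of the 3 motifs at the positions searched. Both hold such pyrimidine runs outside that range, in GAS5 also just past its end. No TATAA overlaps a pyrimidine run or the E-box. These matches are descriptions of the windows and not sites of measured binding.

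The windows below run 5′ to 3′ on the gene's strand from 60 bases before the RefSeq start to 40 bases of the transcript. They show the TATAA and the pyrimidine run in capitals. SNHG1, with the most negative fold change, GAS5, and SNHG16, with a fold change near 0, are shown beside the 5 genes with TATAA.
SNHG1, chr11:62855846-62855945, minus strand: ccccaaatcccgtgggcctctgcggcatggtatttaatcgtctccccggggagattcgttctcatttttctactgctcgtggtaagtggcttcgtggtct
SNHG8, chr4:118278702-118278801, plus strand: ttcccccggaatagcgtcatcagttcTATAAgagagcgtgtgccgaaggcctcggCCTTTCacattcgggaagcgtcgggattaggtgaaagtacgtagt
ZFAS1, chr20:49278582-49278681, plus strand: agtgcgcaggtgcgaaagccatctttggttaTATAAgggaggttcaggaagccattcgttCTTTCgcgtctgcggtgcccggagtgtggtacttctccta
GAS5, chr1:173869006-173869105, minus strand: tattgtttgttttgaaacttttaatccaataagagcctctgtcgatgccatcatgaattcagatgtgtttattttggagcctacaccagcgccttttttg
SNHG12, chr1:28581834-28581933, minus strand: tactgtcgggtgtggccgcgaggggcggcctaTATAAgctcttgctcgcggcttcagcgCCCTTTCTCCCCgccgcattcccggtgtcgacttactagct
SNHG7, chr9:136728145-136728244, minus strand: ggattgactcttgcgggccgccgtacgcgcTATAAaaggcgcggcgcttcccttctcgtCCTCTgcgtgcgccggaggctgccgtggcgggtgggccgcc
SNHG5, chr6:85678694-85678793, minus strand: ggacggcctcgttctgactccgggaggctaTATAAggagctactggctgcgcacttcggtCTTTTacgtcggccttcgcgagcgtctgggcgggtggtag
SNHG16, chr17:76557704-76557803, plus strand: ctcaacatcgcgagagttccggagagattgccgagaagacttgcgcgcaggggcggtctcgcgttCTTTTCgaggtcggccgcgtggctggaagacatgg

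The E-box of SNHG7 lies 122 bases before its start and is in capitals here.
SNHG7 upstream, chr9:136728264-136728343, minus strand: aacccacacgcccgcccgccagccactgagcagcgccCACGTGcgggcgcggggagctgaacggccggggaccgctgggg

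SNHG16 (ENSG00000163597, chromosome 17), the host of the SNORD1 RNAs, stood at 57.1, 58.2 and 54.7 CPM in DOX, against 69.2, 59.4 and 53.3 CPM in DMSO 11, 23 and 35. Here DMSO 11 was the highest library, unlike in the 8 genes that shared an order. The log2 fold change was -0.10 ± 0.11 (edgeR adjusted p = 0.567), and 0.0072 ± 0.07 without DMSO 11 (edgeR adjusted p = 0.940), so its sign turned. Its means were 56.6 ± 1.79 CPM in DOX and 60.6 ± 8.05 CPM in DMSO (SD, n = 3 each).

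The spread among the DMSO libraries was wider than among the DOX libraries in 10 of 10 genes, taken as the highest over the lowest library. The share of all genes with a wider spread in DMSO was not counted. Over genes with at least 10 CPM, root mean square log2 distances were 0.11 among DOX libraries and 0.17 to 0.43 among DMSO libraries. A wider spread in DMSO was thus not particular to the hosts. Relative to DMSO 11 alone, the DOX libraries did not share 1 direction over the genes. All 3 DOX libraries were above DMSO 11 in 5 genes (SNHG6, SNHG7, SNHG12, GAS5 and ZFAS1), all were below it in 2 (SNHG15 and SNHG16), and DMSO 11 lay inside the DOX range in 3 (SNHG1, SNHG5 and SNHG8). The Pearson correlation of a gene's log2 CPM with the mean of the other 9 over the 6 libraries was 0.94 to 0.99 in the 8 genes, 0.18 in SNHG6 and -0.30 in SNHG16. These values are descriptions: the libraries fall into DMSO 23 with DMSO 35 on one side and the rest on the other.

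The genes whose pattern was most like the mean of the hosts were ZFAND1, TRAT1, UBAC2, PMM1 and RP11-861A13.4, with r of 0.997 to 0.999 over the 6 libraries among 9301 genes of at least 10 CPM. ZFAND1, a zinc finger protein, stood at 56.1, 60.6 and 58.7 CPM in DOX, against 55.7, 113 and 93.8 CPM in DMSO 11, 23 and 35. TRAT1, a T-cell receptor associated adaptor, stood at 78.6, 82.9 and 79.3 CPM in DOX, against 77.1, 108 and 98.8 CPM in DMSO 11, 23 and 35. An r above 0.95 was reached by 620 genes (6.67%), so the pattern of the hosts is one that many genes share.

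Per length, the hosts spanned a wide range. Levels in RPKM (CPM per kilobase) were computed on the merged exon lengths of GENCODE 29, another annotation than the authors'. In DOX, SNHG8 was highest at 195 RPKM and GAS5 next at 123 RPKM. SNHG1 at 89.8, SNHG5 at 83.9, ZFAS1 at 80.4 and SNHG6 at 72.9 RPKM followed, and each of these overlapped its neighbour in the order. SNHG15 at 26.0, SNHG7 at 14.4, SNHG12 at 12.6 and SNHG16 at 10.6 RPKM came last, none overlapping its neighbour. In DMSO the order was SNHG8 (466 RPKM), SNHG1 (219), ZFAS1 (187), GAS5 (167), SNHG5 (102), SNHG6 (68.0), SNHG15 (40.7), SNHG7 (21.7), SNHG12 (19.4) and SNHG16 (11.3). There SNHG6 and SNHG15 were the only neighbours whose libraries did not overlap. The order depends on the length used: on the median transcript length GAS5 was the highest in DOX, at 621 to 683 CPM per kilobase, followed by SNHG1 at 416 to 482 and SNHG8 at 312 to 433.

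SNHG6 (ENSG00000245910, chromosome 8), the host of SNORD87, stood at 95.2, 98.2 and 79.2 CPM in DOX, against 78.1, 99.6 and 76.8 CPM in DMSO 11, 23 and 35. The groups overlapped throughout, and DMSO 23 and DOX 24 held about the same level. Its log2 fold change was 0.10 ± 0.13 (edgeR adjusted p = 0.635), the only positive one of the 10, and 0.04 ± 0.12 without DMSO 11 (edgeR adjusted p = 0.789). Means were 90.9 ± 10.2 CPM in DOX and 84.8 ± 12.8 CPM in DMSO (SD, n = 3 each).

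The snoRNAs themselves were counted sparsely. GENCODE 29 placed 26 snoRNA genes inside the hosts on the same strand, none of them in GAS5, whose snoRNAs were not analysed here. Of the 26, 6 matched a counted gene by identifier and 5 of these had reads. The 3 in ZFAS1 summed to 220 counts over all libraries, beside 52591 counts for ZFAS1 itself. They held 46, 53 and 44 counts in DOX 12, 24 and 36, against 40, 15 and 22 counts in DMSO 11, 23 and 35. DMSO 23 and DMSO 35, where ZFAS1 was highest, were the libraries where these snoRNA counts were lowest. SNORD12 alone held 25, 32 and 20 counts in DOX, against 24, 8 and 16 counts in DMSO 11, 23 and 35. Reads of a box C/D RNA and of the unspliced host intron around it cannot be told apart in these counts.

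**Figure D3:**
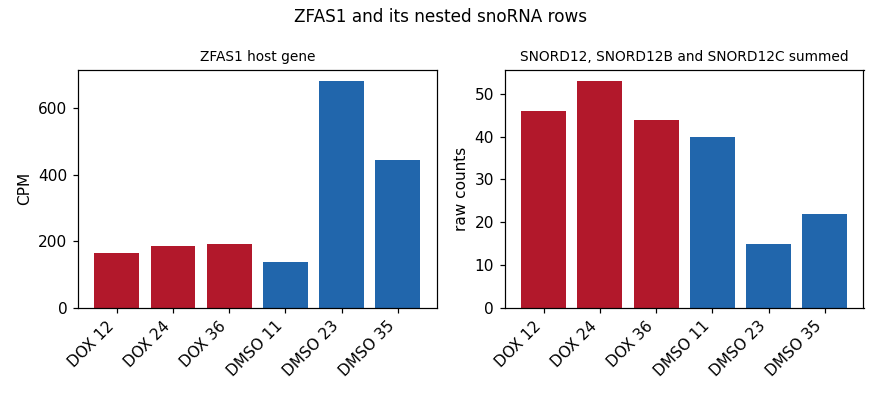
ZFAS1 in CPM (left axis from 0) and the summed raw counts of SNORD12, SNORD12B and SNORD12C (right axis from 0) in each library, DOX in red and DMSO in blue. ZFAS1 reaches 681 CPM in DMSO 23, where the snoRNAs have 15 counts, and the snoRNAs reach 53 counts in DOX 24, where ZFAS1 has 185 CPM.

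The 3 snoRNAs of ZFAS1 are printed because their counts ran against the host's. The sequences are from GENCODE 29 (GRCh38), 5′ to 3′, with the box C motif TGATGA and the box D motif CTGA in capitals.
SNORD12, chr20:49280683-49280772, plus strand: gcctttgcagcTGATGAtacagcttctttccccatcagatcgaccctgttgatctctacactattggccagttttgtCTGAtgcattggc
SNORD12B, chr20:49280319-49280409, plus strand: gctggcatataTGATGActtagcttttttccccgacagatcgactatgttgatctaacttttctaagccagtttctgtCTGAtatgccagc
SNORD12C, chr20:49278940-49279028, plus strand: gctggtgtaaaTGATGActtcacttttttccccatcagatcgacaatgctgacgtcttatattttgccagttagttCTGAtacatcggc

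The other nested snoRNAs were SNORD99, SNORD1B and SNORD87. SNORD99 in SNHG12 held 29, 31 and 23 counts in DOX, against 25, 23 and 22 counts in DMSO 11, 23 and 35. Its groups overlapped, with a log2 fold change of 0.26 ± 0.23 (edgeR adjusted p = 0.489). Whether the fold change of a snoRNA differed from that of its host was not tested, here or in ZFAS1. SNORD1B in SNHG16 held 6, 2 and 6 counts in DOX, against 2, 3 and 2 counts in DMSO, which is too few to compare. SNORD87 in SNHG6 had 0 counts in every library, which allows up to 3 counts per library by counting error alone. Over all snoRNA rows, 36 passed the filter, with a median log2 fold change of 0.37 and 31 of 36 positive, beside a median of -0.0031 over all genes. Many snoRNA rows had few counts, and such a row could pass the filter through only the group where it was high. SNORD12B, for example, held 13, 12 and 14 counts in DOX, against 9, 6 and 4 counts in DMSO 11, 23 and 35. The positive median and the 31 of 36 thus describe the rows that passed and are not evidence about snoRNAs as a class. EdgeR called 0 of the 36, and 4 had an unadjusted p under 0.05, a smaller share than the 26% of all genes. DESeq2 gave an adjusted p for 14 of the 36 and called 0. Without DMSO 11, edgeR called 8 of the 36 higher and 0 lower, in a fit that called 23.7% of all genes higher. SNORD12 (1.13, edgeR adjusted p = 0.0131) and SNORD12B (1.40, edgeR adjusted p = 0.0159) were among the 8.

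Genes beside the hosts show how far the pattern reached, in GENCODE 29 gene order. SLC3A2, the heavy chain of an amino acid transporter, lies head to head with SNHG1 at 188 bases. It stood at 376, 400.3 and 368 CPM in DOX, against 343, 613 and 578 CPM in DMSO 11, 23 and 35, with DMSO 23 and 35 the highest libraries as in SNHG1 and a log2 fold change of -0.42 ± 0.20 (edgeR adjusted p = 0.212). WDR74, a ribosome assembly factor on the other side of SNHG1, was at 51.8, 58.7 and 51.2 CPM in DOX and at 67.7, 93.0 and 83.1 CPM in DMSO, and DESeq2 called it lower (log2 fold change -0.59 by edgeR; DESeq2 adjusted p = 0.00306). ZNFX1, a helicase gene that overlaps ZFAS1 on the opposite strand, ran the other way. It stood at 93.9, 91.1 and 89.8 CPM in DOX, against 78.6, 67.7 and 70.2 CPM in DMSO 11, 23 and 35, and DESeq2 called it higher (log2 fold change 0.35 ± 0.08 by edgeR; DESeq2 adjusted p = 0.0221). Without DMSO 11, edgeR called all 3 genes, at -0.64 (adjusted p = 3.18e-07) for SLC3A2, -0.71 (adjusted p = 2.45e-07) for WDR74 and 0.41 (adjusted p = 3.12e-05) for ZNFX1. How strand was used in the counting is not given in the sources used here, and where ZFAS1 and ZNFX1 overlap their reads may be mixed.

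TAF12, a general transcription factor subunit beside SNHG12, stood at 41.5, 45.1 and 42.3 CPM in DOX, against 43.2, 51.9 and 48.5 CPM in DMSO 11, 23 and 35. ZBTB37, a zinc finger gene that overlaps GAS5 on the opposite strand, stood at 31.8, 25.8 and 29.1 CPM in DOX, against 26.3, 34.8 and 39.1 CPM in DMSO 11, 23 and 35. In both, DMSO 23 and 35 were above every DOX library, as in the hosts beside them, and the log2 fold changes were -0.16 and -0.21 (edgeR adjusted p = 0.315 and 0.393). Without DMSO 11 they were -0.23 and -0.36 (edgeR adjusted p = 0.0134 and 0.00242). MYO1G, a myosin next to SNHG15, stood at 259.2, 264 and 259 CPM in DOX, against 248, 179 and 186 CPM in DMSO 11, 23 and 35. DMSO 23 and 35 were its low libraries, where SNHG15 was high. NDST3 beside SNHG8 ran against its host, at 64.9 to 70.5 CPM in DOX and 57.6 to 60.9 CPM in DMSO, without overlap. The log2 fold change of NDST3 was 0.17 (edgeR adjusted p = 0.202), and 0.18 without DMSO 11 (edgeR adjusted p = 0.039). Fold changes were small for TRNAU1AP, which overlaps SNHG12 (log2 fold change 0.05), and DDX27 near ZFAS1 (-0.03).

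Lists of related genes were set beside the hosts by their medians and counts. Among 18 tested genes of 26 listed other non-coding hosts, the median log2 fold change was -0.0080; edgeR called 0, 6 had an unadjusted p under 0.05 (beside 26% of all genes), and DESeq2 called 3 lower and 0 higher (beside 6.44% and 3.37% of all genes). SNHG17, a host of SNORA71 RNAs, stood at 77.1, 78.3 and 78.8 CPM in DOX, against 88.1, 163 and 157 CPM in DMSO 11, 23 and 35 (log2 fold change -0.80 ± 0.21 by edgeR; DESeq2 adjusted p = 0.00673). SNHG11 and EPB41L4A-AS1 were the others, at -0.76 and -1.95 by edgeR (DESeq2 adjusted p = 0.0160 and 0.0437). All 3 had DMSO 11 as their lowest DMSO library. DANCR, a non-coding host picked out here after its values were seen, ran the other way, at 72.6, 76.5 and 73.7 CPM in DOX, against 79.3, 43.7 and 37.8 CPM in DMSO 11, 23 and 35. SNHG32 and SNHG29, also picked out after their values were seen, had the order of the 8 hosts. SNHG32 stood at 310, 398 and 383 CPM in DOX, against 293, 1206 and 753 CPM in DMSO 11, 23 and 35. SNHG29 stood at 694, 871 and 862 CPM in DOX, against 784, 1516 and 1022 CPM in DMSO 11, 23 and 35. Of the 18 genes, 9 had a negative fold change and 9 a positive one. So the order of the 8 hosts was shared by some other non-coding hosts and not by all.

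Protein-coding hosts had a median log2 fold change of -0.03 over 47 tested genes. EdgeR called 0 of them, 8 had an unadjusted p under 0.05, a smaller share than the 26% of all genes, and DESeq2 called 3 lower, about the 6.44% of all genes. These 3 were the pseudogene host CCT6P1 (-1.02 by edgeR), the ribosome assembly factor WDR43 (-0.44) and the RNA polymerase I cofactor TAF1D (-0.59). Reads of CCT6P1 can be shared with its parent gene, so its value is uncertain. HSPA8, the chaperone Hsc70 and host of the SNORD14 RNAs, was chosen after its values were seen. It stood at 1405, 1515 and 1431 CPM in DOX, against 1408, 277 and 281 CPM in DMSO 11, 23 and 35. Its low libraries, DMSO 23 and DMSO 35, were the high libraries of SNHG1.

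The snoRNP list holds the proteins that bind snoRNAs and assemble them into particles. Its median log2 fold change was -0.19 over 21 tested genes, and every DOX library lay below every DMSO library in 12 of 21, beside 15.6% of all genes. EdgeR called 0, 6 had an unadjusted p under 0.05 (beside 26% of all genes), and DESeq2 called 3 lower (beside 6.44%). SHQ1, an assembly factor of H/ACA particles, stood at 207, 213 and 209 CPM in DOX, against 274, 316 and 319 CPM in DMSO 11, 23 and 35 (log2 fold change -0.53 ± 0.09 by edgeR; DESeq2 adjusted p = 5.94e-05). RUVBL1, an assembly ATPase, was at -0.32 and NUFIP1, a box C/D assembly factor, at -0.54 by edgeR (DESeq2 adjusted p = 0.0156 and 0.0298). In RUVBL1 DMSO 11 was the highest library, unlike in the 8 hosts that shared an order.

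NMD factors had a median log2 fold change of -0.04 over 22 tested genes, with 0 called by edgeR, 4 at an unadjusted p under 0.05 (beside 26% of all genes), and 2 called lower by DESeq2 (beside 6.44%), UPF3B (-0.49) and MAGOHB (-0.50). Transcripts known to build up when NMD is blocked had a median of -0.17 over 17 tested genes, with 0 called by edgeR, 5 at an unadjusted p under 0.05 (beside 26% of all genes), and 3 called lower by DESeq2 (beside 6.44%). These were GADD45A (-1.05), a growth arrest gene, ATF3 (-0.56), a stress transcription factor, and UPF3B, which both lists hold. ATF3 stood at 75.6, 78.6 and 78.6 CPM in DOX, against 98.9, 127 and 118 CPM in DMSO 11, 23 and 35. 5′TOP mRNAs outside the ribosome had a median of -0.01 over 14 tested genes, with 0 called by edgeR or DESeq2 and 1 at an unadjusted p under 0.05. Among them EEF1A1, the translation elongation factor, was at -0.08 and HNRNPA1 at 0.28 by edgeR.

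**Figure D4:**
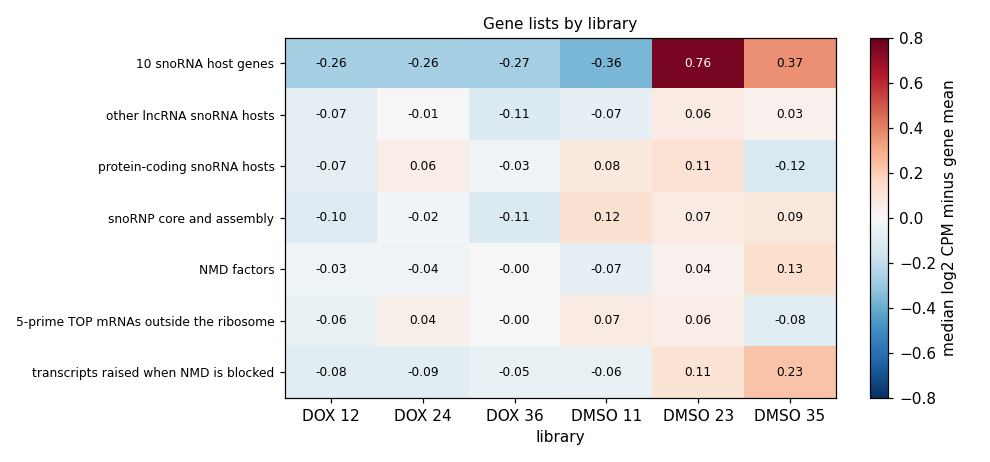
Median over each gene list of log2 CPM minus the gene's own mean over the 6 libraries (colour and number), by library, DOX on the left. The 10 hosts are at -0.26 to -0.27 in DOX, -0.36 in DMSO 11, 0.76 in DMSO 23 and 0.37 in DMSO 35, and the other lists shown stay between -0.12 and 0.23.

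By library, the median deviation of the hosts from their own means was -0.26, -0.26 and -0.27 on the log2 scale in DOX 12, 24 and 36, against -0.36, 0.76 and 0.37 in DMSO 11, 23 and 35. The transcripts known to build up when NMD is blocked were also highest in DMSO 35 and DMSO 23, at 0.23 and 0.11, with DMSO 11 at -0.06 and DOX at -0.05 to -0.09. So were the NMD factors, at 0.13 and 0.04, and the other non-coding hosts, at 0.03 and 0.06. Both of these lists were negative in the remaining libraries. The protein-coding hosts, the snoRNP genes and the 5′TOP mRNAs did not share these highest libraries. Without DMSO 11, where edgeR called 25.7% of all genes lower and 23.7% higher, it called 5 of the other non-coding hosts lower and 2 higher, 8 protein-coding hosts lower and 10 higher, and 9 snoRNP genes lower and 2 higher. In that fit the NMD factors had 8 lower and 6 higher, the transcripts known to build up when NMD is blocked 9 lower and 2 higher, and the 5′TOP mRNAs 1 lower and 2 higher.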

How the data were processed

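The authors deposited raw counts for each Ensembl gene and library. Their own comparison of DOX with DMSO gives, per the file headers, the mean normalised signal, the log2 fold change and its error, the test score and p-values. Per the submitters' processing notes, STAR 2.5.2a, featureCounts, DESeq2 1.12.4 and hg19 were used, with no role given; annotation and strand setting are not given in the sources used here. Columns carry a group and a number found in no label, so they were mapped to groups only. The 92 spike-in rows held 0 counts and were left out. Every pair of libraries differed beyond sampling noise (mean chi-square per gene at least 4.64), so none was merged.

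Genes were filtered (filterByExpr), scaled by TMM and fitted in R 4.3.3 with edgeR 4.0.16 (quasi-likelihood F test, robust), Benjamini-Hochberg adjusted over 15949 genes. A standard error is the log2 fold change over the square root of F. CPM were computed here on the total over the tested genes times the TMM factor, with a prior count of 2 before taking logs. The alternatives were DESeq2 1.42.0, limma 3.58.1 (voom), other scalings and filters and leaving out each library. Tests were tried on simulated data. Members and lists were chosen with earlier results of these data known. Genes named beyond the members are called list genes (up to 4, or the 2 most abundant), flanking genes and the 5 most alike, and those said to be chosen later. Among the lists, 22 of 26 non-coding hosts, 47 of 48 protein-coding hosts, 21 of 22 snoRNP genes, 15 of 16 5′TOP genes and all others matched a counted gene. Some results are not reported here.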

Additional observations from a re-analysis of the deposited data

How the results depend on the processing

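Over all genes, edgeR called 5, DESeq2 1383 and edgeR with no filter on low counts 1761; voom, DESeq2 size factors and a filter of 1 CPM in 3 libraries gave 5 each and total count scaling 6. Leaving out 1 library gave 0 to 8109 edgeR calls, 8109 without DMSO 11 and 0 without any other, where 2273 to 2629 genes (13.9% to 16.1%) had an unadjusted p under 0.05 and DESeq2 called 95 to 190. The cause was not tested. Host genes called lower were 1 by DESeq2 and 0 by the other tools, scalings and filters. They were 0 to 8 with a library left out, by edgeR and by DESeq2 (the DESeq2 fits added after the data were seen): 8 without DMSO 11 and 0 without any other, where 3 (edgeR) and 1 to 5 (DESeq2) had an unadjusted p under 0.05. Without DMSO 11, DESeq2 called 6806 of all genes, and 48% of all genes had an unadjusted DESeq2 p under 0.05. Without any other library, 13% to 14.6% of all genes had an unadjusted DESeq2 p under 0.05. SNHG15 by DESeq2 ran from -0.86 to -0.49. Of the alternatives tried for single host genes, 120 kept direction and side of the threshold, 9 passed it newly and 1 turned sign: SNHG16, at -0.19 to 0.0072 with a library left out. The median of the hosts ran from -0.85 without DMSO 11 to -0.31 without DMSO 23 and kept its sign.

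The count columns carry none of the labels' replicate numbers. A replicate block with pairs assumed from the first digit of the column number, added after the data were seen, called 3 genes and 0 hosts by edgeR (3982 genes and 5 hosts at an unadjusted p under 0.05), with a host median of -0.53. The deviations of libraries assumed to be pairs correlated at 0.05 to 0.07, and no DOX library correlated best with its assumed partner. Over all combinations of a DOX and a DMSO library the correlation ran from -0.18 to 0.13. Values this weak, from 3 libraries per group, cannot decide whether the libraries were paired. With 3 libraries per group, exact permutation cannot go below p = 0.1. The floor given for a row without counts covers counting error only. Each edgeR SE also includes the spread between libraries, which may be technical.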
